A study of Mus musculus with 9 samples.

Results

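Kit, the Sprouty and Spred inhibitors and a set of dual-specificity phosphatases were examined in RNA-seq counts of lymph node CD4+ (helper) T cells from male C57BL/6 mice. The group held 10 genes of the 39017 in the count table (Kit, Spry1, Spry2, Spry4, Spred1, Spred2, Dusp2, Dusp4, Dusp5 and Dusp6), and each was matched to 1 Ensembl ID by its symbol. The genes were selected on their roles in 1 pathway and with their differences between the genotypes already known, so those differences are given as a description, with no test, and support no statement. Kdm6a was floxed on the single X chromosome in all 9 samples, WT included. The 5 WT samples (numbers 1, 3, 4, 5 and 9) had no CD4-Cre, and the 4 cKO samples (2, 6, 7 and 8) had 1 copy of it, so Cre presence and loss of Kdm6a cannot be told apart. CD4-Cre is switched on by Cd4 control elements during thymic development, so the deletion precedes the mature cell that was sampled. The age of the mice, the way the cells were purified and any treatment before RNA isolation are not given in the labels, and the name of the deposited table carries "stim", which they do not explain. The labels do not state that each sample is a separate mouse. The series set out to find which transcripts depend on Kdm6a, an X-linked demethylase of lysine 27 on histone H3.

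Kit is the receptor tyrosine kinase for stem cell factor and is best known in mast cells, haematopoietic progenitors and melanocytes. Receptors of this kind, and the T cell receptor, activate Ras, which starts the Raf, MEK and ERK kinase cascade. The cascade limits itself through its own targets. Sprouty proteins act between the receptor and Raf, Spred proteins recruit the Ras inhibitor neurofibromin, and several dual-specificity phosphatases (Dusp) remove the activating phosphates from ERK. Many of these genes are transcribed within minutes to hours of ERK activation, so their transcripts are often read as a trace of past signalling.

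Total counts per sample ran from 20587482 to 26387488. Levels are in CPM, counts scaled to a common library size, after TMM scaling, a correction for library composition. Kdm6a was at 60.04 to 63.8 CPM in WT against 41.5 to 44.8 CPM in cKO, with a log2 difference of -0.55 (SE 0.04) over the whole gene, deleted and undeleted exons together. All 9 markers of CD4 T cells were present, with a summed level of 2690 to 2900 CPM in WT against 2656 to 2814 CPM in cKO. Cd4 (873 and 957 CPM) and the kinase gene Lck (610 and 532 CPM) were the most abundant of them. Of the 9, 2 rose (Cd4 and Cd5) and 5 fell (Cd3d, Cd3g, Lck, Trbc1 and Trbc2), where 7.0% of all genes tested rose and 8.82% fell. All 10 genes of the group passed the filter on low counts. A log2 fold change is cKO over WT with its standard error (SE), and a gene is said to have risen or fallen where the adjusted p of edgeR's quasi-likelihood test was below 0.05 over all 14693 genes tested.

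Kit, Spry2 and Spred1 stood wholly above WT in the cKO samples. The stretch upstream of each start site is shown because these were the members whose genotypes separated. The sequences are from RefSeq on GRCm38.p6, the build also called mm10, are written 5′ to 3′ on the strand of the gene, end before the annotated start, and have each CpG dinucleotide in capitals. The stretch of Kit is chr5:75574737-75574915 on the plus strand, that of Spry2 is chr14:105896820-105897069 on the minus strand, and that of Spred1 is chr2:117120821-117121070 on the plus strand.
Kit: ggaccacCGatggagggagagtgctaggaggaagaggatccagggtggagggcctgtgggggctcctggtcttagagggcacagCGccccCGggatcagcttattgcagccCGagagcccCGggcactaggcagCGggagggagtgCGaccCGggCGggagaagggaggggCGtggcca
Spry2: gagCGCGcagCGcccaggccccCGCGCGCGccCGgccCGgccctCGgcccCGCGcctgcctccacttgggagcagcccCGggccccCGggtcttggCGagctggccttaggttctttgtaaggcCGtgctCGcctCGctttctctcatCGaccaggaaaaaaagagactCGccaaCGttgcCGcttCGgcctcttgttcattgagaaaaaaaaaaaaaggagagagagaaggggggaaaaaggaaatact
Spred1: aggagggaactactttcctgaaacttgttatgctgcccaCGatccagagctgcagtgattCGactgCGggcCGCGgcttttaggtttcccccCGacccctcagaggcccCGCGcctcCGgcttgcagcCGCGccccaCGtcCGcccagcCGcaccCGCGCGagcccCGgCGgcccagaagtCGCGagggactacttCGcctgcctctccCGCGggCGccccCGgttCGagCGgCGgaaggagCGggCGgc

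The printed stretches held 10 CpGs in 179 bases for Kit, 23 in 250 for Spry2 and 31 in 250 for Spred1. In windows of 250 bases before the RefSeq start, which were found for 8 of the 10 genes, the CpG count was 17 for Kit, 23 for Spry2 and for Spry1, 31 for Spred1, 12 for Spred2, 19 for Dusp2, 21 for Dusp5 and 16 for Dusp6. Kit and Spred2 have an annotated start inside that window in GENCODE, so their windows include some transcribed bases, as does that of Dusp5. Spred1 has its GENCODE start further downstream, at 117121374, so its window does not end just before that start. The bases checked after its RefSeq start were in no GENCODE transcript of the gene. The median over the windows of 27025 genes was 6, and every window of the 8 members was above it. Each window was searched on both strands for 6 motifs. The ETS motif CCGGAAG, the AP-1 motif TGANTCA and the cAMP response motif TGACGTCA were in 0 of the 8 windows and in 7.05%, 6.87% and 1.62% of all windows. Dusp2 was the single member with the EGR motif GCGNGGGCG (4.65% of all windows) and with the E-box CACGTG (6.05%). The GC box GGGCGGG, which can overlap the EGR motif, was in 4 member windows (Kit, Spry1, Dusp2 and Dusp5) and in 23.6% of all windows. These are letter matches in a short window and say nothing of binding.

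Kit was low in WT and higher in every cKO sample. Its level was 1.63, 1.16, 1.68, 1.56 and 0.611 CPM in WT samples 1, 3, 4, 5 and 9, and 3.75, 7.66, 4.56 and 4.20 CPM in cKO samples 2, 6, 7 and 8. The lowest cKO sample was above the highest WT sample, and cKO 6 was well above the other cKO samples. The means were 1.33 CPM ± 0.449 (SD, n = 5) and 5.05 CPM ± 1.78 (SD, n = 4), for a log2 difference of 1.94 (SE 0.28), or 3.83-fold. It was 1.66 without cKO 6. The counts behind these levels were small, from 16 to 42 reads in the WT samples and from 89 to 185 in the cKO samples. Kit (ENSMUSG00000005672) lies on the plus strand of chromosome 5 from 75574916 to 75656722.

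The ligand of Kit was close to absent. Kitl, which encodes stem cell factor, was below the filter, at 0.0441 to 0.378 CPM in WT against 0.0447 to 0.0844 CPM in cKO, against a limit of 3 reads per library that corresponds to 0.115 to 0.144 CPM.

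Markers of mast cells, basophils and progenitors were low in both genotypes, and no melanocyte list was run. Of 10 markers of mast cells and basophils, 8 had any read, and the list summed to 1.13 to 1.76 CPM in WT against 1.01 to 1.53 CPM in cKO. Most of that sum was Hdc, the histidine decarboxylase gene, at 1.28 CPM in WT against 1.06 CPM in cKO, from 17 to 37 reads per library. The basophil protease gene Mcpt8 and Ms4a2, a chain of the IgE receptor, had 0 reads in all samples, the progenitor and mast cell factor Gata2 was at 0.0688 and 0.0455 CPM, and the mast cell carboxypeptidase gene Cpa3 at 0.0518 and 0.0559 CPM. The 7 progenitor markers summed to 0.611 to 1.25 CPM in WT against 0.717 to 1.12 CPM in cKO, with Procr (0.355 and 0.391 CPM) and Flt3 (0.134 and 0.186 CPM) the most abundant in WT. The 8 markers of innate lymphoid cells, of which T cells share Gata3 and Id2, summed to 128 to 157 CPM in WT against 119 to 136 CPM in cKO. Gata3 (79.1 and 73.9 CPM) and Id2 (54.1 and 48.7 CPM) made up most of that sum, and 1 of the 5 tested markers, Il23r, fell. None of these 3 summed levels was higher in cKO than in WT in every sample. In bulk RNA, more cells with Kit and more Kit RNA per cell cannot be told apart.

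Other cell types were also followed. B cell markers summed to 2.97 to 4.81 CPM in WT against 2.46 to 3.98 CPM in cKO, with Cd79b (1.72 and 0.911 CPM) and Cd79a (1.02 and 0.921 CPM) the most abundant, of which Cd79b fell. The CD8 genes Cd8b1 (11.6 and 14.1 CPM) and Cd8a (1.80 and 2.70 CPM) summed to 11.9 to 15.08 CPM in WT against 15.12 to 19.1 CPM in cKO. Every cKO sum was above every WT sum, by a narrow margin, and Cd8b1 rose. Natural killer markers summed to 7.10 to 19.8 CPM in WT against 13.1 to 49.1 CPM in cKO. The most abundant were Eomes (10.9 and 20.4 CPM, edgeR adjusted p = 0.115), which T cells can also express, and Klrk1 (1.36 and 3.94 CPM, adjusted p = 0.0582), while the lineage marker Ncr1 was at 0.0320 and 0.0561 CPM. Much of that difference lay in cKO 2, where Klrk1 was at 9.36 CPM against 1.54 to 2.64 CPM in the other cKO samples and Eomes at 39.0 against 10.3 to 17.8 CPM. The same sample was the highest of the cKO samples for Spry2, Spry4, Spred1 and Spred2 and the lowest for Kit, Spry1, Dusp2 and Dusp6. Macrophage and dendritic cell markers summed to 12.3 to 17.2 CPM in WT against 13.8 to 18.3 CPM in cKO, nearly all of it Csf1r (14.3 and 15.5 CPM), with Flt3 next. Stromal and vessel markers summed to 97.1 to 119 CPM and 84.9 to 106 CPM, nearly all of it Pecam1 (108 and 97.3 CPM), with Col1a1 next at 0.312 and 0.122 CPM. The part of the CD8 and natural killer signal in the differences of the group was not tested.

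**Figure D1:**
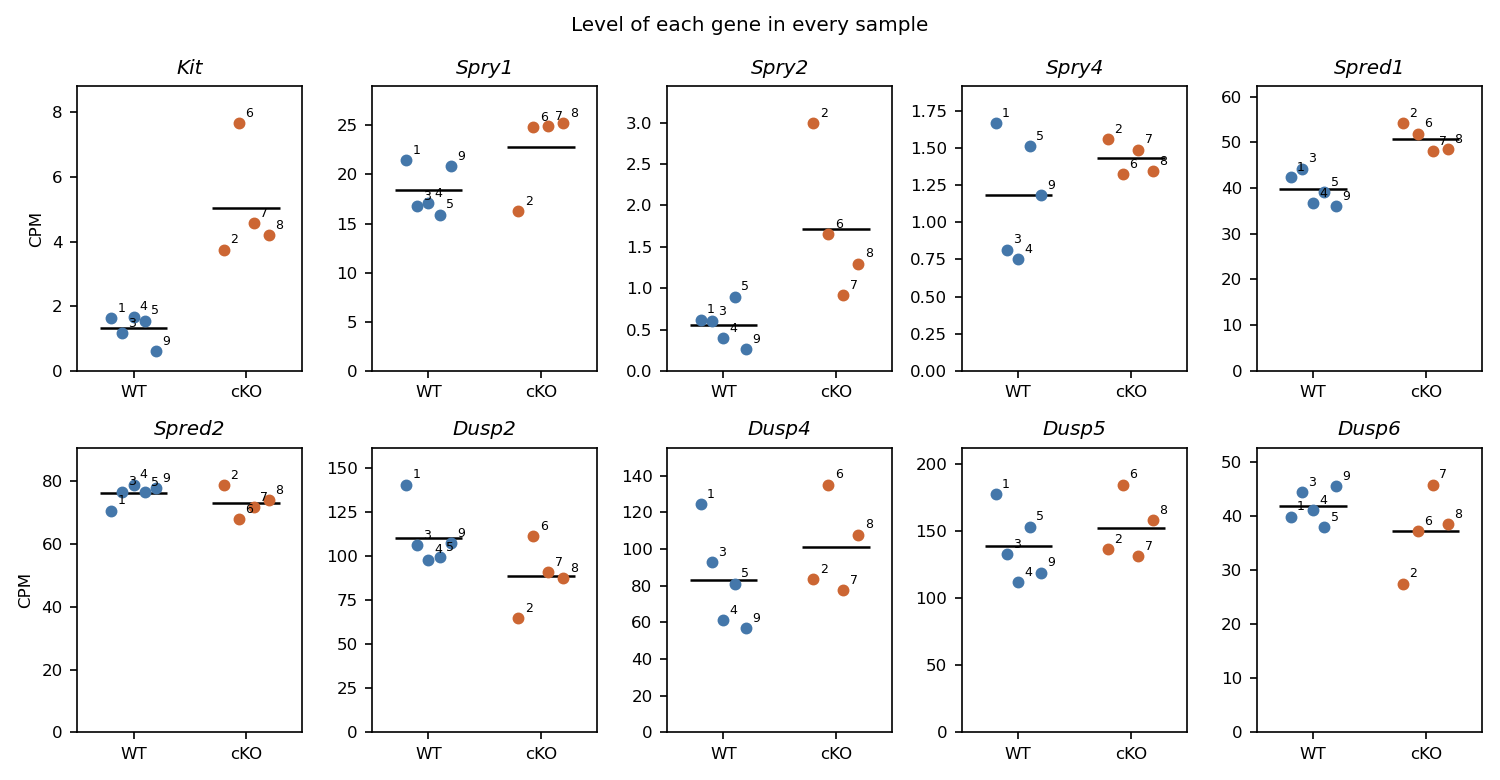
CPM of each of the 10 genes (vertical axes, linear, from 0) in the WT and cKO samples; points are samples with their numbers and horizontal bars are group means. Every cKO point of Kit, Spry2 and Spred1 lies above every WT point, Spry2 by a narrow margin (0.912 against 0.897 CPM), and the other 7 genes overlap.

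The Sprouty genes encode inhibitors that are themselves induced by growth factor signalling. Spry2 was at 0.620, 0.601, 0.397, 0.897 and 0.267 CPM in WT samples 1, 3, 4, 5 and 9, and at 2.99, 1.66, 0.912 and 1.30 CPM in cKO samples 2, 6, 7 and 8. The groups did not overlap, but cKO 7 and WT 5 were almost level, with 19 reads each, and cKO 2 was far above the other cKO samples. The means were 0.557 CPM ± 0.240 (SD, n = 5) and 1.72 CPM ± 0.905 (SD, n = 4), a log2 difference of 1.65 (SE 0.38), which was 1.24 without cKO 2. Spry2 (ENSMUSG00000022114) lies on the minus strand of chromosome 14 from 105891947 to 105896819. The sample with the most Spry2 in cKO was the sample with the least Kit, cKO 2, while WT 9 was the lowest WT sample for both genes.

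Spry1 was the most abundant Sprouty gene per kilobase in both genotypes. It was at 21.5, 16.8, 17.1, 15.9 and 20.9 CPM in WT samples 1, 3, 4, 5 and 9 and at 16.2, 24.8, 24.9 and 25.2 CPM in cKO samples 2, 6, 7 and 8. Of the cKO samples, 3 were above all WT samples and cKO 2 lay among the lower WT samples. The log2 difference was 0.30 (SE 0.14) with all samples and 0.44 without cKO 2. Spry1 (chromosome 3, 37639947 to 37644598, plus strand) shares 710 exonic bases with a gene model on the opposite strand, Gm42922, and the strand setting of the counting is not given in the sources used here.

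Spry4, the third Sprouty gene, was low in both genotypes. It was at 1.67, 0.816, 0.750, 1.51 and 1.18 CPM in WT samples 1, 3, 4, 5 and 9, and at 1.56, 1.33, 1.49 and 1.34 CPM in cKO samples 2, 6, 7 and 8. All cKO samples lay within the range of WT, and the log2 difference of 0.26 (SE 0.23) was 0.43 without WT 1 and 0.14 without WT 4. Spry4 lies on the minus strand of chromosome 18 from 38586247 to 38601415.

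The Spred genes encode membrane-bound relatives of Sprouty. Spred1 was at 42.4, 44.3, 36.8, 39.1 and 36.0 CPM in WT samples 1, 3, 4, 5 and 9 and at 54.2, 51.9, 48.0 and 48.5 CPM in cKO samples 2, 6, 7 and 8. The groups did not overlap and were tight, at 39.7 CPM ± 3.56 (SD, n = 5) and 50.7 CPM ± 2.92 (SD, n = 4). The log2 difference was 0.35 (SE 0.07), or 1.28-fold, and ran from 0.32 to 0.39 over 16 other settings. Spred1 (ENSMUSG00000027351) lies on the plus strand of chromosome 2 from 117121374 to 117182279.

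Spred2 overlapped between genotypes. It was at 70.7, 76.8, 79.0, 76.5 and 77.9 CPM in WT samples 1, 3, 4, 5 and 9, and at 78.9, 68.1, 71.8 and 74.0 CPM in cKO samples 2, 6, 7 and 8. Both genotypes ran from about the same low to the same high level, and the log2 difference was -0.06 (SE 0.05). Spred2 lies on the plus strand of chromosome 11 from 19924375 to 20024026.

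All 4 phosphatases overlapped between genotypes. Dusp2, Dusp4 and Dusp5 encode nuclear enzymes, and Dusp6 encodes a cytoplasmic enzyme specific for ERK. Dusp2 was at 141, 106, 98.0, 99.3 and 107 CPM in WT samples 1, 3, 4, 5 and 9 and at 64.7, 111, 91.1 and 87.6 CPM in cKO samples 2, 6, 7 and 8. Of the cKO samples, 3 were below every WT sample and cKO 6 was above all WT samples but WT 1. The log2 difference was -0.32 (SE 0.14), with -0.45 without cKO 6 and -0.19 without cKO 2. Dusp2 lies on the plus strand of chromosome 2 from 127336159 to 127338376.

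Dusp4 varied more between samples of a genotype than between genotypes. It was at 125, 92.8, 61.3, 81.1 and 56.8 CPM in WT samples 1, 3, 4, 5 and 9 and at 83.8, 135, 77.8 and 108 CPM in cKO samples 2, 6, 7 and 8. The ranges covered each other for the most part, and the log2 difference of 0.28 (SE 0.22) was 0.11 without cKO 6 and 0.47 without WT 1. Dusp4 lies on the plus strand of chromosome 8 from 34807297 to 34819894.

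Dusp5 followed the same samples. It was at 178, 133, 112, 153 and 119 CPM in WT samples 1, 3, 4, 5 and 9 and at 136, 185, 131 and 158 CPM in cKO samples 2, 6, 7 and 8. WT 1 and cKO 6 were again the highest of their groups, and the log2 difference was 0.13 (SE 0.14), with 0.03 without cKO 6 and 0.24 without WT 1. Dusp5 (chromosome 19, 53529109 to 53542431, plus strand) shares 547 exonic bases with the antisense gene AC137853.2. Dusp6 was at 39.9, 44.4, 41.1, 38.1 and 45.7 CPM in WT samples 1, 3, 4, 5 and 9 and at 27.5, 37.3, 45.9 and 38.6 CPM in cKO samples 2, 6, 7 and 8. The genotypes overlapped, with cKO 2 the lowest of all samples, and the log2 difference of -0.17 (SE 0.12) was -0.05 without cKO 2 and -0.28 without cKO 7. Dusp6 lies on the plus strand of chromosome 10 from 99263231 to 99267489.

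Across the 10 genes, 7 had a positive and 3 a negative log2 difference, with a median of 0.27, against 0.0012 over all genes tested. The genotypes did not overlap in 3 genes, all higher in cKO, where 7.08% of all genes tested lay wholly above WT in cKO and 8.78% wholly below. The same 3, Kit, Spry2 and Spred1, were past the adjusted p threshold in edgeR and 0 were past it in the lower direction, where 15.8% of all genes tested were past it, 7.0% higher and 8.82% lower. Since the genes were chosen with these differences known, nothing is read from those counts.

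**Figure D2:**
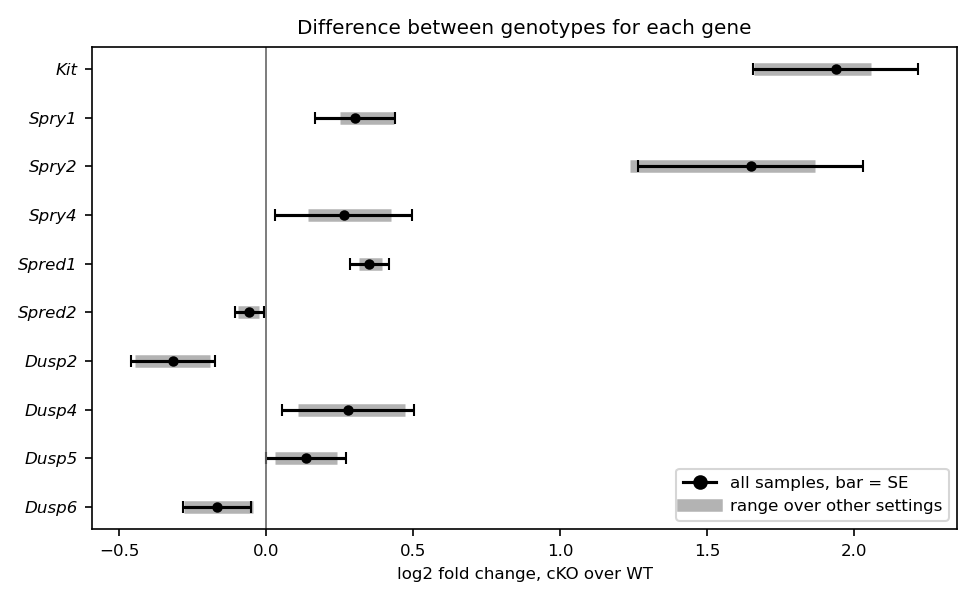
Log2 fold change, cKO over WT (horizontal axis), of the 10 genes; points are the estimates from all 9 samples with their SE, and grey bars span the estimates under the other settings and with 1 sample left out. Kit at 1.94 and Spry2 at 1.65 lie far to the right of the other 8 genes, which run from -0.32 for Dusp2 to 0.35 for Spred1.

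Levels of different genes were compared as CPM per kilobase of exonic length. In WT, Dusp5 (56.2 CPM per kb) and Dusp2 (55.1) were at the top and overlapped in their samples, followed by Dusp4 (30.4), Spred2 (16.5) and Dusp6 (13.4), which did not overlap with their neighbours in the order. Spry1 (6.34) and Spred1 (5.86) overlapped with each other. Spry2 (0.267), Spry4 (0.249) and Kit (0.149 CPM per kb) were the lowest and overlapped. In cKO the order of the first 8 was the same, with Dusp2 (44.2) now overlapping both Dusp5 (61.7) and Dusp4 (36.9). Kit (0.566) changed places with Spry4 (0.301 CPM per kb), from which its samples were separate. The highest cKO level of Kit was thus still far below the levels of Spry1, Spred1 and the phosphatases.

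**Figure D3:**
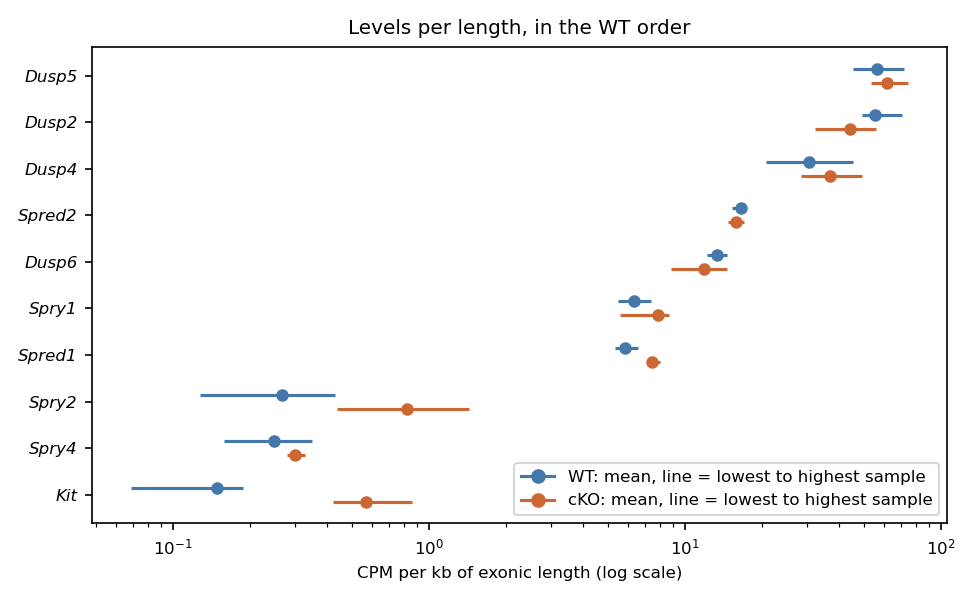
Mean level of each gene in CPM per kb of exonic length (horizontal axis, log scale) in WT and cKO, with lines from the lowest to the highest sample and genes in the WT order. The 4 phosphatases and Spred2 lie above 8 CPM per kb in every sample, and Kit, Spry2 and Spry4 below 1.5 CPM per kb.

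Within a genotype the group varied more than most genes. The biological coefficient of variation, the spread between samples beyond counting error, was 34.2% for Spry2, 26.6% for Kit, 23.3% for Dusp4, 17.4% for Spry4, 14.9% for Dusp2, 14.4% for Dusp5, 13.9% for Spry1 and 12.1% for Dusp6, against a median of 7.20% over all genes tested. Spred1 (7.11%) and Spred2 (5.62%) were below that median. WT 1 was the highest WT sample for Spry1, Spry4, Dusp2, Dusp4 and Dusp5, and cKO 6 the highest cKO sample for Kit, Dusp2, Dusp4 and Dusp5. Both held for 3 of the 10 genes, the nuclear phosphatases Dusp2, Dusp4 and Dusp5, and for 11.5% of all genes tested.

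The profile of Kit over the 9 samples was set beside that of every other gene tested, with each gene centred on its WT mean on the log2 scale. The closest were Nppc, which encodes C-type natriuretic peptide, Hspg2, which encodes the matrix protein perlecan, and Nrn1, which encodes the membrane-anchored protein neuritin, at root mean square distances of 0.375, 0.391 and 0.391. Nppc was at 0.0764 to 0.504 CPM in WT against 0.768 to 1.66 CPM in cKO, Hspg2 at 0.258 to 0.659 and 1.10 to 2.53 CPM, and Nrn1 at 22.5 to 31.4 and 71.4 to 118 CPM. These distances use the difference between genotypes that Kit was chosen on.

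The nearest tested gene on each side of a member was also examined. Of these 20 neighbours, 2 rose and 2 fell, a count near the background of 7.0% higher and 8.82% lower over all genes tested. Ankrd50, 805 kb from Spry1, rose by 0.32 (SE 0.06, edgeR adjusted p = 0.00721), and Fam98b, 67.5 kb from Spred1, rose by 0.29 (SE 0.07, adjusted p = 0.0145). Both neighbours of Spry4 fell, Arhgap26 by 0.67 (SE 0.06, adjusted p = 0.000105) and Ndfip1 by 0.20 (SE 0.04, adjusted p = 0.0111). The nearest tested genes beside Kit, Chic2 (530 kb) and Srd5a3 (484 kb), were at log2 differences of 0.04 and -0.04 (adjusted p = 0.609 and 0.675). The receptor genes Pdgfra and Kdr lie closer to Kit but were below the filter on low counts. Kdr was at 0 to 0.0429 CPM in WT against 0.0894 to 0.331 CPM in cKO, with at most 8 reads in a sample. Pdgfra had 0 reads in every WT sample and at most 1 read in a cKO sample.

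Most other genes of the pathway did not pass the test. Of 138 such genes in 7 lists, 115 were tested, of which 9 rose (7.83%), 20 fell (17.4%) and 86 did not pass, where 7.0% of all genes tested rose and 8.82% fell. With upper-quartile scaling, 13 rose and 18 fell. Without WT 1, 16 rose and 23 fell, where 2933 of all genes tested were past the threshold, against 2324 with all samples. The median log2 difference was -0.01, against 0.0012 over all genes tested.

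**Figure D4:**
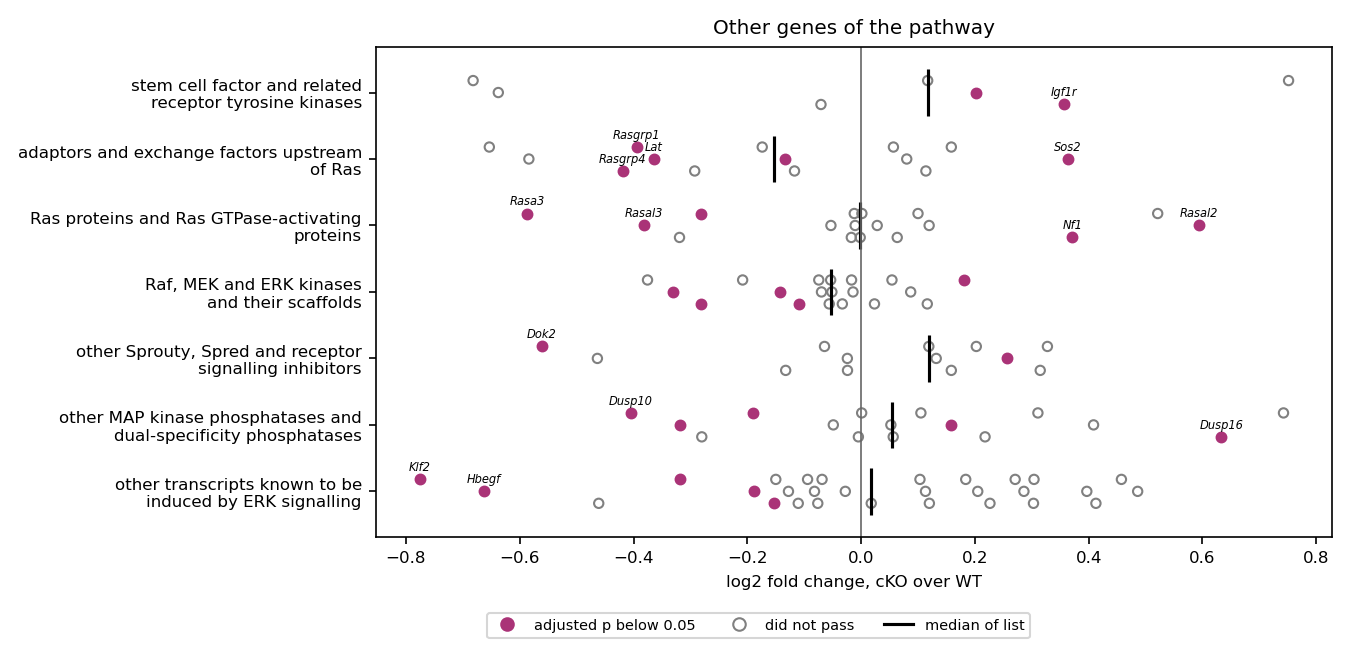
Log2 fold change, cKO over WT (horizontal axis), of the tested genes of 7 pathway lists without the 10 members; filled points passed adjusted p 0.05 in edgeR, open points did not, and black bars are list medians. List medians lie between -0.15 and 0.12, and the filled points run from -0.78 (Klf2) to 0.63 (Dusp16).

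Among other receptor tyrosine kinases and stem cell factor, 7 of 18 genes were tested, of which 2 rose and 0 fell. They were Igf1r, the receptor of insulin-like growth factor 1, at 21.6 to 25.0 CPM in WT against 26.2 to 32.8 CPM in cKO (log2 0.36, SE 0.07, edgeR adjusted p = 0.00580), and the insulin receptor gene Insr, at 0.20 (SE 0.05, adjusted p = 0.0171). The Insr call was lost without cKO 6 (adjusted p = 0.0580). None had an unadjusted p under 0.05 in the lower direction (0 of 7), and 3 had one in the higher direction, while DESeq2 found 2 higher and 0 lower. With no count filter, 4 of 18 rose, and without cKO 2, 1 of 7 fell. In the receptor class of Kit, the macrophage growth factor receptor gene Csf1r was at 14.3 CPM in WT against 15.5 CPM in cKO (adjusted p = 0.529). Its relatives Flt3, Pdgfrb and Pdgfra were below the filter, Pdgfra with 0 reads in every WT sample and Pdgfrb at 0.166 CPM in WT against 0.415 CPM in cKO.

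Between receptor and Ras, 4 of 14 tested adaptors and exchange factors fell and 1 rose. Lat, the membrane adaptor of the T cell receptor, was at 225 to 245 CPM in WT against 171 to 201 CPM in cKO (log2 -0.36, SE 0.05, edgeR adjusted p = 0.00113). The exchange factor genes Rasgrp1, the main Ras activator of T cells, and Rasgrp4 fell by 0.39 (SE 0.08, adjusted p = 0.0107) and 0.42 (SE 0.07, adjusted p = 0.00302). The fourth gene that fell was Grb2, and the rise was that of Sos2, another exchange factor, at 31.7 to 39.1 CPM in WT against 43.5 to 45.9 CPM in cKO (log2 0.36, SE 0.06, adjusted p = 0.00375). The median of the list was -0.15. Without WT 1, 6 fell and 2 rose.

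Among 17 tested Ras proteins and Ras inactivators, 2 rose and 3 fell. Nf1, which encodes neurofibromin, the Ras inactivator that Spred proteins bring to the membrane, was at 30.7 to 35.8 CPM in WT against 38.0 to 44.5 CPM in cKO (log2 0.37, SE 0.06, edgeR adjusted p = 0.00293). The inactivator genes Rasal3 and Rasa3 fell by 0.38 (SE 0.05, adjusted p = 0.00144) and 0.59 (SE 0.14, adjusted p = 0.0151), and Rras2, a Ras relative, fell by 0.28 (SE 0.06, adjusted p = 0.0116). The other rise was that of Rasal2. With 1 sample left out, 1 rose and 4 fell without cKO 7. Hras was at a log2 difference of -0.0016 (SE 0.06).

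Of 19 tested kinases and scaffolds of the cascade, 1 rose and 4 fell. The smallest adjusted p was that of Rps6ka1, a kinase activated by ERK, at 215 to 229 CPM in WT against 171 to 181 CPM in cKO (log2 -0.33, SE 0.03, edgeR adjusted p = 0.000229). The scaffold gene Iqgap1 fell by 0.14 (SE 0.03, adjusted p = 0.0195, 0.0641 without cKO 6) and Mknk2, a kinase downstream of ERK, by 0.11 (SE 0.03, adjusted p = 0.0316). The Mknk2 call was lost in 9 of 16 other settings (adjusted p up to 0.0808). Ksr1, a scaffold, was the fourth gene that fell. Braf rose by 0.18 (SE 0.04, adjusted p = 0.0188). Mapk3, which encodes an ERK kinase, was at a log2 difference of -0.05 (SE 0.06, adjusted p = 0.586). The number that fell was 2 without any 1 of WT 3, WT 9, cKO 2, cKO 6, cKO 7 or cKO 8, and the number that rose was 2 without cKO 2.

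Of 13 tested relatives of the inhibitors, 1 rose and 1 fell. Dok2, an adaptor that dampens receptor signalling, was at 62.4 to 76.0 CPM in WT against 37.4 to 56.6 CPM in cKO (log2 -0.56, SE 0.10, edgeR adjusted p = 0.00449). Ptpn6, the phosphatase SHP-1, rose by 0.26 (SE 0.08, adjusted p = 0.0462), a call lost in 6 of 16 other settings (adjusted p up to 0.140). Spred3, the third Spred gene, was at 2.23 CPM in WT against 2.80 CPM in cKO (adjusted p = 0.0886). The number that rose was 0 without any 1 of WT 3, WT 4, WT 9, cKO 6 or cKO 8, and 2 without WT 5 or cKO 7. Without cKO 8, 2 fell.

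The other phosphatases of MAP kinases were divided, with 2 higher and 3 lower past the threshold among 16 tested. Dusp16, which acts on the stress kinases JNK and p38, was at 11.5 to 18.9 CPM in WT against 18.5 to 24.6 CPM in cKO (log2 0.63, SE 0.14, edgeR adjusted p = 0.0115). Dusp10, of the same specificity, fell by 0.40 (SE 0.07, adjusted p = 0.00325), and Dusp7, specific for ERK like Dusp6, fell by 0.19 (SE 0.04, adjusted p = 0.0121). Ptpn7, a tyrosine phosphatase of ERK in blood cells, was at 329 to 371 CPM in WT against 272 to 294 CPM in cKO (log2 -0.32, SE 0.04, adjusted p = 0.00129). The second gene that rose was Ppm1a. Without WT 1 or without WT 5, 3 rose.

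Of 29 other tested transcripts linked to ERK signalling, 5 fell, 0 rose and 24 did not pass in edgeR. With an unadjusted p under 0.05 there were 2 higher genes, and DESeq2 found 1 of 30 higher and 6 lower. Hbegf, a growth factor gene, was at 4.34 to 6.28 CPM in WT against 3.13 to 3.55 CPM in cKO (log2 -0.66, SE 0.12, edgeR adjusted p = 0.00470), and Klf10, a transcriptional repressor also induced by TGF-beta, fell by 0.32 (SE 0.06, adjusted p = 0.00662). Elk4, a partner of serum response factor that ERK phosphorylates, fell by 0.15 (SE 0.04, adjusted p = 0.0214, lost in 3 of 16 other settings with adjusted p up to 0.0706). Klf2, a factor of T cell quiescence that activation turns down, fell by 0.78 (SE 0.22, adjusted p = 0.0371), a call lost in 9 of 16 other settings (adjusted p up to 0.108), and the survival gene Mcl1 was the other that fell. The early genes Egr1 and Nr4a1 were at 80.5 and 224 CPM in WT against 76.9 and 262 CPM in cKO (adjusted p = 0.835 and 0.660).

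The transcripts linked to ERK signalling depended on WT 1. In that sample Nr4a1 was at 454 CPM, against 134 to 209 CPM in the other WT samples, and Il2 at 45.7 against 4.45 to 11.6 CPM. WT 1 was the highest WT sample in 22 of the 29 genes (75.9%), against 25.1% of all genes tested. cKO 6 was the highest cKO sample in 14 (48.3%), against 26.8%, and both were true of 14 genes, against 11.5%. Without WT 1, 5 of the 29 rose and 5 fell, where 1363 of all genes tested rose, against 1028 with all samples. The 5 that rose were Nr4a1 (log2 0.66, SE 0.14, edgeR adjusted p = 0.0101), Il2 at 1.48, Fosb at 0.98, Lif at 0.46 and Myc at 0.39. Their adjusted p with all samples ran from 0.0647 for Myc to 0.706 for Il2. WT 1 was singled out on these same values, and leaving out a high WT sample lifts cKO over WT. Nothing is read from these rises. The number that fell was 2 without WT 9, without cKO 6 or without cKO 8, and 3 without WT 4, and 2 rose without cKO 2. Kit, Spry2 and Spred1 were at log2 differences of 2.03, 1.70 and 0.38 without WT 1.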

How the data were processed

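Enriched mRNA of 9 CD4+ T cell samples was sequenced from strand-selected KAPA libraries, per the labels' protocols. The authors deposited raw counts per Ensembl gene ID, whole numbers that were not normalized. The submitters' processing notes name bcl2fastq 2.17 and mm10, and no aligner, counting tool, strand setting or annotation (not given in the sources used here). Columns were matched to samples by title, and 0 belonged to no sample. Positions and exonic lengths came from GENCODE M21 and promoter windows from RefSeq, both on GRCm38.

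The quasi-likelihood test of edgeR 4.0.16 in R 4.3.3 was fitted to all 9 samples with TMM scaling and filterByExpr, two-sided, with Benjamini-Hochberg adjustment over 14693 genes. Log2 CPM used a prior count of 2. A library with 0 reads of a gene was given a limit of 3 counts, which covers counting error only. Within groups the chi-square per gene between 2 samples was 3.34 or more, so no samples were merged. Alternatives were DESeq2 1.42.0, its size factors in edgeR, upper-quartile scaling, limma-voom 3.58.1, robust quasi-likelihood, 2 other count filters and omission of each sample. The fits were tested on simulated data.

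The members and lists were chosen with earlier results of these data known. Named are the 10 members and Kdm6a, up to 4 genes per pathway list that passed with the smallest adjusted p, the 2 most abundant genes of each marker list and any at 0, the 3 profiles nearest to Kit, and neighbours of members that passed. Genes named outside that rule were chosen after their values were seen. Since separate mice are not stated, p-values reflect only sample-to-sample spread, technical or not.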

Additional observations from a re-analysis of the deposited data

Results flagged for a closer look

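Of 20 groups tested (10 genes in each genotype), 2 held a sample far from the others, where chance alone gives about 1 in 20 groups. Spry1 was at 16.2 CPM in cKO 2, against 24.8 to 25.2 CPM in the other cKO samples. Dusp2 was at 141 CPM in WT 1, against 98.0 to 107 CPM in the other WT samples. Without cKO 2 the log2 difference of Spry1 was 0.44, against 0.30 with it.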

How the results depend on the processing

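No paired analysis was possible because the genotypes share no sample number. The log2 difference of each of the 10 members kept its sign under all settings that gave a value (16, and 15 for Spry2, which was below the filter of at least 1 CPM in 4 samples). The number of genes past adjusted p 0.05 was 2324 and ran from 1263 without cKO 6 to 2933 without WT 1, with 1504 without cKO 8 and 1528 without WT 4. With upper-quartile scaling 54.2% of them were higher, against 44.2% with TMM. Of the other pathway genes, from 7 (without cKO 6) to 16 (without WT 1) rose with 1 sample left out. Kit and Spred1 were past the threshold in all 16 other settings and Spry2 in the 15 that tested it, all higher. Spry1 was past it only without cKO 2, the sample flagged above for Spry1 itself, where 2179 of all genes were past it. The members were chosen with this contrast known, and every setting reuses the same counts. Passing the threshold in many settings is therefore no support for a difference, and nothing is read from these counts. By CPM with no division by length, Kit, Spry1, Spry2 and Spred1 took other places in the WT order. Spry2, Spry4 and Kit rest on 7 to 185 reads per library, which limits their precision.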
